A study of Oryza sativa with 4 samples.

Results

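The B, C and D class floral MADS genes described here are 9 rice genes, picked as a gene family by their locus IDs: OsMADS2, OsMADS4 and OsMADS16 of the B class, OsMADS29 of the related Bsister group, OsMADS3 and OsMADS58 of the C class, OsMADS13 and OsMADS21 of the D lineage, and OsMADS32, a grass gene grouped with them here. All 9 IDs were found among the 57143 rows of the deposited table, 8 of them on a row of their own and OsMADS58 on a row that also carried another ID. Levels were measured by poly(A)-selected RNA-seq of young panicle, the developing inflorescence, in soil-grown rice of the japonica type. Of the 4 labelled samples, 2 are the control Nip and 2 the line osrdr2-3, which carries the genotype label DES1 mutant. OsRDR2 is an RNA-dependent RNA polymerase of the pathway that directs DNA methylation by small RNAs. The table's mutant libraries could not be tied to the labelled mutant samples, so osrdr2-3 was not analysed here and no test between genotypes was made. All values below come from Nip replicates 1 and 2, every mean ± SD has n = 2, and nothing in the labels says whether the replicates came from separate plants. The values are FPKM (fragments scaled to transcript length and to the size of the library). Setting levels side by side between genes assumes that each row has the right transcript length and fragments, which was not tested.

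MADS-box proteins of the MIKC type bind DNA as dimers and larger complexes, and combinations of them specify the organs of the flower. In the ABC model B genes act in petals and stamens, C genes in stamens and carpels and D genes in ovules, with E class (SEPALLATA-like) proteins as shared partners. In the rice floret the place of petals is taken by lodicules, small organs that swell to open the floret. B proteins of the PISTILLATA and APETALA3 types act as heterodimers of both types. Because whole panicles were sampled, fewer cells of an organ and less RNA per cell cannot be told apart in these values.

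The C class row of OsMADS58 stood highest, followed by OsMADS13 of the D lineage and OsMADS3 of the C class, while OsMADS32 lay far below all the others. Of the 9 genes, 8 reached 10 FPKM in both libraries, whereas 20.2% of all rows with 1 locus ID did so, and all 9 reached 1 FPKM, a level met by 36.9% of those rows. Replicate 1 gave the 9 genes a median of 77.3 FPKM and replicate 2 one of 82.1 FPKM, beside 0.0364 and 0.0344 FPKM over all 54168 rows with 1 ID and 11.9 and 11.7 FPKM over the 20461 of these that averaged 1 FPKM or more. Both medians of the 9 genes are the values of OsMADS21, which was higher in replicate 2. Together the 9 genes reached 669.2 FPKM in replicate 1 and 649.6 FPKM in replicate 2, which was 0.0918% and 0.0901% of the summed FPKM.

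**Figure D1:**
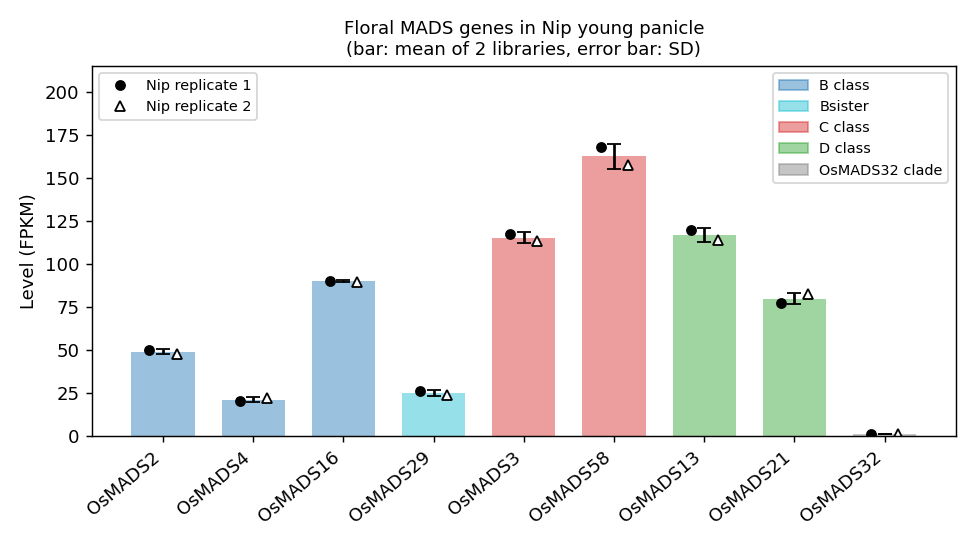
Level in FPKM (vertical axis, linear) of each of the 9 MADS genes, grouped by class. Filled circles are Nip replicate 1, open triangles replicate 2, bars the mean and error bars the SD of both; OsMADS58 stands highest at 162.3 FPKM and OsMADS32 lowest at 1.11 FPKM.

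Among B class genes, OsMADS16 was the most abundant and OsMADS4 the least. OsMADS16, also called SPW1, is the APETALA3-type gene of lodicules and stamens. Replicate 1 held it at 90.2 FPKM and replicate 2 at 89.6 FPKM, with a mean of 89.9 ± 0.457 FPKM, and by ratio these were the closest values among the 9 genes, at 1.01-fold. The table places its locus, LOC_Os06g49840, at 30173484 to 30178066 of chromosome 6. The sources used here do not name the genome build of these coordinates.

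OsMADS2 and OsMADS4 are the PISTILLATA-type partners of OsMADS16, with OsMADS2 known mainly for lodicule development. OsMADS2 (LOC_Os01g66030, chromosome 1, 38319059 to 38324179) was at 49.98 and 47.7 FPKM, a mean of 48.8 ± 1.60 FPKM. OsMADS4 (LOC_Os05g34940, chromosome 5, 20759320 to 20764230) was at 20.2 and 21.9 FPKM, a mean of 21.1 ± 1.19 FPKM. The paralogs did not overlap: OsMADS2 was 2.47 times OsMADS4 in replicate 1 and 2.18 times in replicate 2. OsMADS16 was 1.80 and 1.88 times OsMADS2, and 4.46 and 4.09 times OsMADS4. Set against the sum of both PISTILLATA-type genes, at 70.2 and 69.6 FPKM, it was 1.28 times as high in replicate 1 and 1.29 times in replicate 2. The level of the APETALA3-type gene was thus nearer to the sum of its partners than to either of them.

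OsMADS29 belongs to the Bsister group, sister to the B class, and is known for its part in the developing seed, where it promotes degradation of the nucellus. It was at 26.1 and 23.5 FPKM in these young panicles, a mean of 24.8 ± 1.83 FPKM (LOC_Os02g07430, chromosome 2, 3833077 to 3837628). This was 0.289 and 0.262 times the level of OsMADS16. The libraries were 1.11-fold apart, the widest gap among the 9 genes. Of the other listed Bsister IDs, OsMADS30 was lower, at 2.32 and 1.77 FPKM, and LOC_Os04g52410 was higher than OsMADS29, at 51.99 and 45.1 FPKM. The row of LOC_Os04g52410 carried another ID and its symbol could not be paired with RefSeq.

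Both C class genes exceeded 100 FPKM in both libraries. OsMADS3, known for stamen identity and later anther development, was at 117.3 and 112.96 FPKM, a mean of 115.1 ± 3.04 FPKM (LOC_Os01g10504, chromosome 1, 5559547 to 5569033). OsMADS58, known for carpel development and for ending the floral meristem, was at 167.5 and 157.1 FPKM, a mean of 162.3 ± 7.35 FPKM. The values of these paralogs did not overlap, and OsMADS58 was 1.43 times OsMADS3 in replicate 1 and 1.39 times in replicate 2. The row of OsMADS58 carried LOC_Os05g11380 beside LOC_Os05g11414 and spanned 32458 bp on chromosome 5 (6426002 to 6458459), whereas the RefSeq gene of that name spans 12209 bp in another assembly. How much of the value belongs to each ID was not tested, so the order of the C class paralogs rests on a shared row. A pair of further rows listed on that same interval, LOC_Os05g11390 and LOC_Os05g11400, were listed at 0 in both libraries.

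In the D lineage, OsMADS13 was near OsMADS3 in level, and OsMADS21 was lower than both C class rows. OsMADS13, the ovule identity gene, was at 119.4 and 113.6 FPKM, a mean of 116.5 ± 4.11 FPKM (LOC_Os12g10540, chromosome 12, 5584425 to 5590338). OsMADS21, its relative in the AGAMOUS clade, was at 77.3 and 82.1 FPKM, a mean of 79.7 ± 3.40 FPKM (LOC_Os01g66290, chromosome 1, 38500879 to 38505127). OsMADS13 was the higher in both libraries, 1.54 times OsMADS21 in replicate 1 and 1.38 times in replicate 2. In the sum of each class, C genes reached 284.7 and 270.1 FPKM, D genes 196.8 and 195.8 FPKM, and B genes 160.4 and 159.2 FPKM. The order of these sums was the same in both libraries, with C over B at 1.78 and 1.70 and D over B at 1.23 in both. Without OsMADS58 the remaining C gene, OsMADS3, lay below the D sum and below the B sum in both libraries. The place of the C sum in that order thus depends on the shared row. That comparison sets 1 gene against sums of 2 and 3 genes, and any class sum falls when a gene is left out. Gene by gene, OsMADS3 was higher than each B gene and than OsMADS21 in both libraries.

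OsMADS32, a gene of the grasses that is also called CFO1 and is known for lodicule and palea margin identity, was at 1.15 and 1.06 FPKM, a mean of 1.11 ± 0.0653 FPKM (LOC_Os01g52680, chromosome 1, 30278491 to 30280577). OsMADS4, the next lowest, was 17.6 and 20.7 times as high, and OsMADS58 145.3 and 148.2 times. Of the rows with 1 ID that averaged 1 FPKM or more, 1.43% were lower than OsMADS32. RefSeq's table did not pair its symbol with this position, so its name rests on the list of IDs that defines the 9 genes. The table gives no fragment counts, and the number of fragments behind so low a value is unknown.

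From the highest to the lowest mean, the order was OsMADS58, OsMADS13, OsMADS3, OsMADS16, OsMADS21, OsMADS2, OsMADS29, OsMADS4 and OsMADS32. Of the 8 neighbouring pairs in that order, 7 did not overlap between their library values. The exception was OsMADS13 and OsMADS3, whose values overlapped and stood at a ratio of 1.02 in replicate 1 and 1.01 in replicate 2. The narrowest step that did not overlap was that from OsMADS29 to OsMADS4, where the lower value of OsMADS29 was 23.5 FPKM and the higher value of OsMADS4 21.9 FPKM. With 2 libraries and several genes per library, these steps are descriptions without a test. The genes were sorted by the mean of the same 2 libraries, and the count for other sets of rows sorted in this way was not computed. The 7 of 8 pairs without overlap therefore cannot be read as a trait of these genes.

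**Figure D2:**
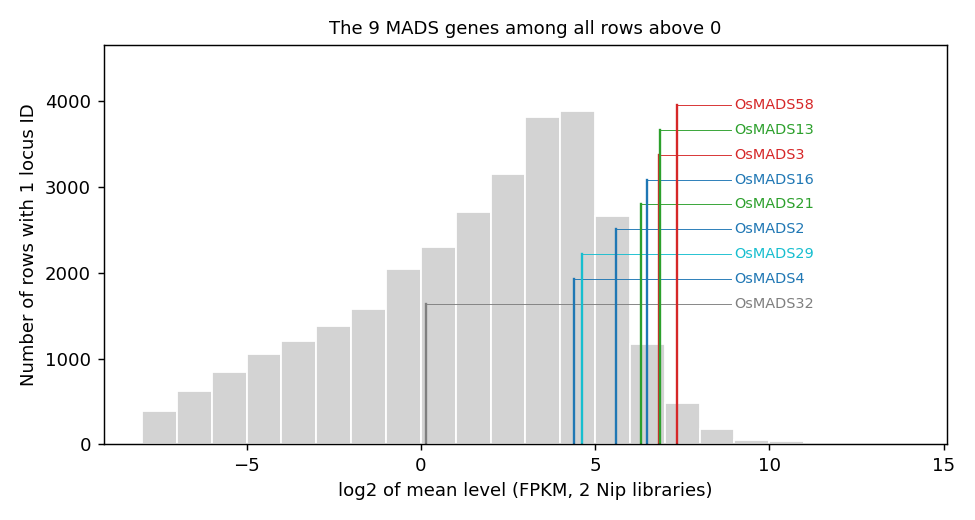
Number of rows with 1 locus ID (vertical axis) by log2 of mean FPKM over both Nip libraries (horizontal axis, rows above 0 only, with 96 rows under -8 not drawn), with vertical lines at the 9 MADS genes. OsMADS58 lay above 98.97% and OsMADS4 above 87.3% of all rows with 1 ID, rows at 0 included, and OsMADS32 above 62.8%.

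By rank among all rows, OsMADS58 stood at 588 in replicate 1 and 618 in replicate 2, OsMADS13 at 909 and 966, and OsMADS3 at 931 and 978. OsMADS16 stood at 1339 and 1340, and OsMADS32 at 21973 and 22124. Among the rows with 1 ID that averaged 1 FPKM or more, OsMADS16 was above 93.9% of rows, OsMADS2 above 86.4%, OsMADS29 above 70.98% and OsMADS4 above 66.4%. The C, D and APETALA3-type genes therefore lay in the upper tail of expressed rows, whereas OsMADS29 and OsMADS4 lay nearer to its middle.

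Of the 9 genes, 4 lie on chromosome 1. OsMADS2 and OsMADS21 are separated there by 176.7 kb with 23 rows between them, 14 of which had a mean of at least 1 FPKM. Within 15 kb of the 9 genes the table lists 51 other rows, 9 of them at 0 in both libraries. No such neighbour was higher in both libraries for 7 of the 9 genes. How often other rows of like level top their neighbours was not computed, so this count cannot be read as a trait of these genes. OsMADS3 was 30.0 times its highest neighbour by mean FPKM, the row of OsMADS58 20.3 times and OsMADS16 12.1 times. OsMADS21 was 2.17 times its highest neighbour, OsMADS2 1.58 times and OsMADS4 1.16 times.

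OsMADS29 and OsMADS32 were the genes with higher neighbours. For OsMADS29 these were LOC_Os02g07420 at 31.6 and 35.0 FPKM, which ends 742 bp before its interval, and LOC_Os02g07450 at 45.3 and 46.3 FPKM. For OsMADS32 there were 4 such rows, the highest at a mean of 32.7 FPKM.

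Some intervals in the table are shared by more than 1 row. OsMADS2 has the interval of LOC_Os01g66020, a row at 0.785 and 0.863 FPKM, and OsMADS4 has that of LOC_Os05g34950, a row at 3.95 and 3.99 FPKM. These intervals span 5121 bp and 4911 bp, whereas the RefSeq genes of OsMADS2 and OsMADS4 span 2735 bp and 2730 bp. No strand-marking step is named in the labels, and how fragments were divided between rows of 1 interval was not tested. For OsMADS16, OsMADS21, OsMADS3 and OsMADS13 the spans in the table, 4583, 4249, 9487 and 5914 bp, lay close to the 4579, 4249, 9437 and 5693 bp of RefSeq.

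**Figure D3:**
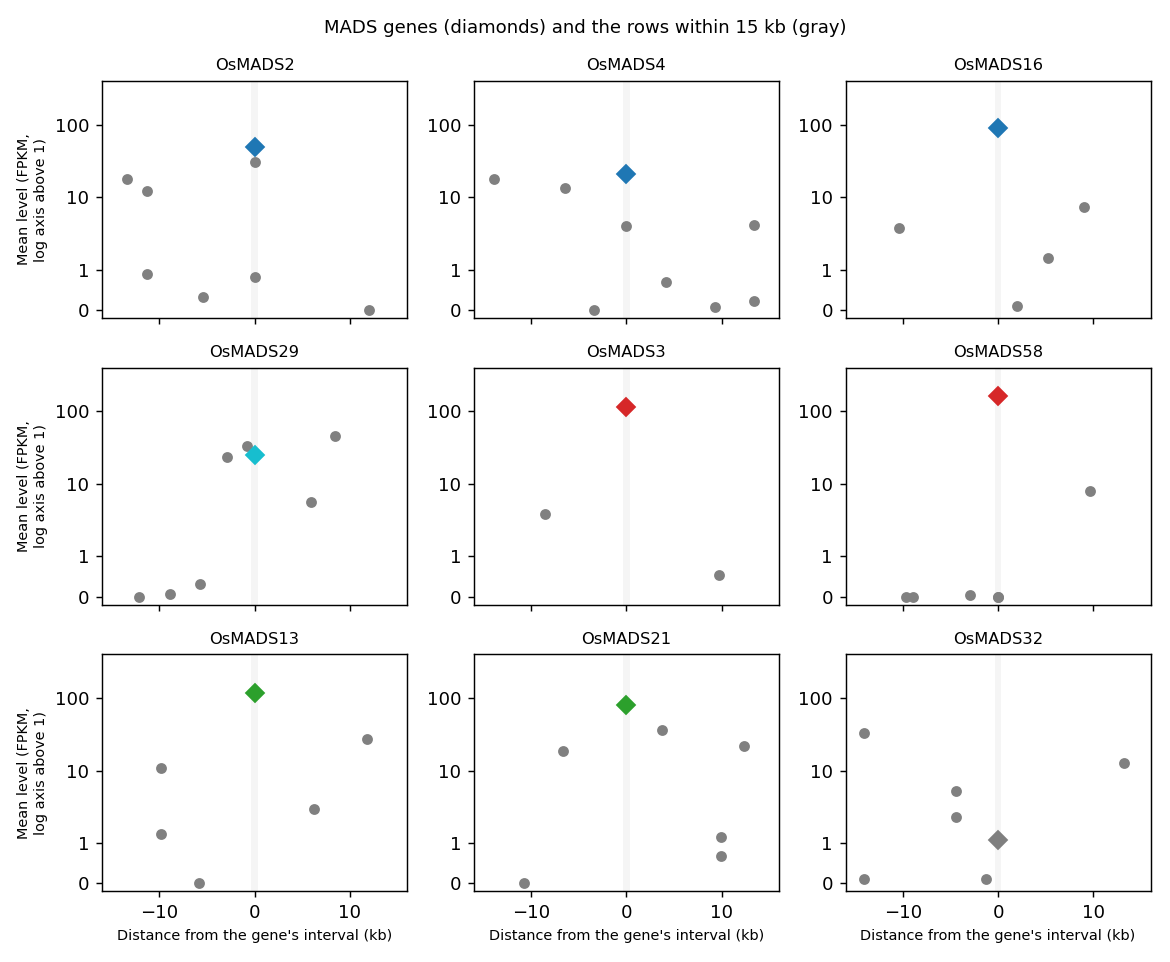
Mean FPKM over both Nip libraries (vertical axis, linear to 1 and logarithmic above) of each MADS gene (diamond, at 0) and of the rows within 15 kb (gray points) by distance from the gene's interval in kb (horizontal axis, lower coordinates to the left). Higher neighbours are seen for OsMADS29 and OsMADS32 and for no other of the 9 genes.

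The libraries were at most 1.11-fold apart for these genes. Of the 9 genes, 7 were higher in replicate 1, and OsMADS4 and OsMADS21 were higher in replicate 2, whereas 52% of rows with 1 ID that averaged 1 FPKM or more were higher in replicate 1. None of the 9 was 1.2-fold or more apart, which 15.1% of those rows were. That share is not matched for level, and low rows spread more widely. The 10th to 90th percentile of the log2(FPKM + 1) difference was -0.27 to 0.33 at log2 levels of 0 to 1. It was -0.08 to 0.09 at log2 levels of 6 to 7. On the log2(FPKM + 1) scale the difference, replicate 1 minus replicate 2, ranged from -0.11 for OsMADS4 to 0.15 for OsMADS29, with a median of 0.06. Within the classes the signs were mixed in the B class and in the D lineage, where OsMADS13 differed by 0.07 and OsMADS21 by -0.09. Beside rows whose mean lay within a factor of 2 of the gene's own, 7 of the 9 absolute differences were above the rows' median. OsMADS16, at 0.01 beside a median of 0.04, and OsMADS32, at 0.06 beside 0.15, were below it. For OsMADS29 the difference of 0.15 stood beside a median of 0.06 over 7213 rows.

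**Figure D4:**
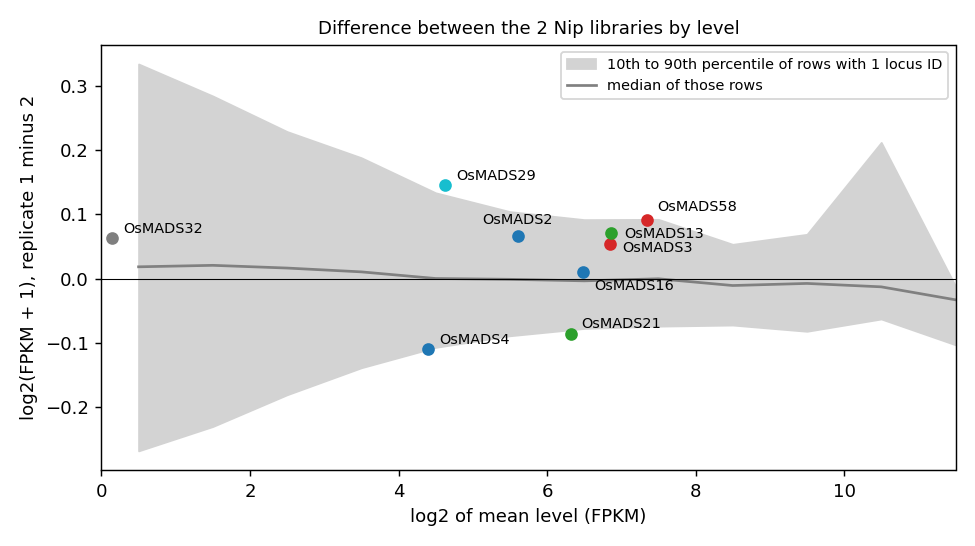
Difference in log2(FPKM + 1) between Nip replicate 1 and replicate 2 (vertical axis) by log2 of mean FPKM (horizontal axis) for the 9 MADS genes (points). The gray band spans the 10th to 90th percentile and the gray line the median of rows with 1 locus ID in classes of level; OsMADS29 at 0.15, OsMADS21 at -0.09 and OsMADS4 at -0.11 lie just past the band of their level class, OsMADS58 at 0.09 lies at its edge and OsMADS16 at 0.01 near its middle.

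Among the MADS partners of these genes, all 7 E class and AGL6-type genes reached 10 FPKM in both libraries. They ranged from OsMADS34 at 14.8 ± 0.113 FPKM to OsMADS1 at 1670 ± 21.6 FPKM. Their median was 79.3 and 81.5 FPKM, beside 77.3 and 82.1 FPKM for all 9 genes described here, OsMADS29 and OsMADS32 included. OsMADS1, of lemma, palea and floret meristem fate, OsMADS8, at 440.1 ± 6.98 FPKM, and OsMADS7, at 295.6 ± 7.05 FPKM, exceeded every B, C and D gene in both libraries. The row of OsMADS1 spanned 66014 bp, whereas the RefSeq gene of that name spans 8618 bp in another assembly. What this does to the level of OsMADS1 was not tested. Of the 4 APETALA1/FRUITFULL genes, 3 reached 10 FPKM in both libraries. OsMADS15 was at 251.5 ± 4.57 FPKM, above every B, C and D gene, and OsMADS14 at 104.5 ± 1.37 FPKM, between OsMADS3 and OsMADS16. OsMADS20, listed at 0.101 and 0.216 FPKM, was lower than OsMADS32.

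Of the 7 other listed floral regulators, 5 could be paired with a symbol, and their median was 4.45 and 5.21 FPKM. The list includes SVP-type genes such as OsMADS22, so this median is not that of floral organ identity genes alone. The most abundant were DL, a gene of carpel identity and leaf midribs, at 16.9 ± 0.378 FPKM and OsMADS22 of the SVP type at 13.7 ± 0.334 FPKM. Both lay below OsMADS4 and above OsMADS32. APO2, the rice LEAFY gene, was at 0.0299 and 0.0639 FPKM.

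**Figure D5:**
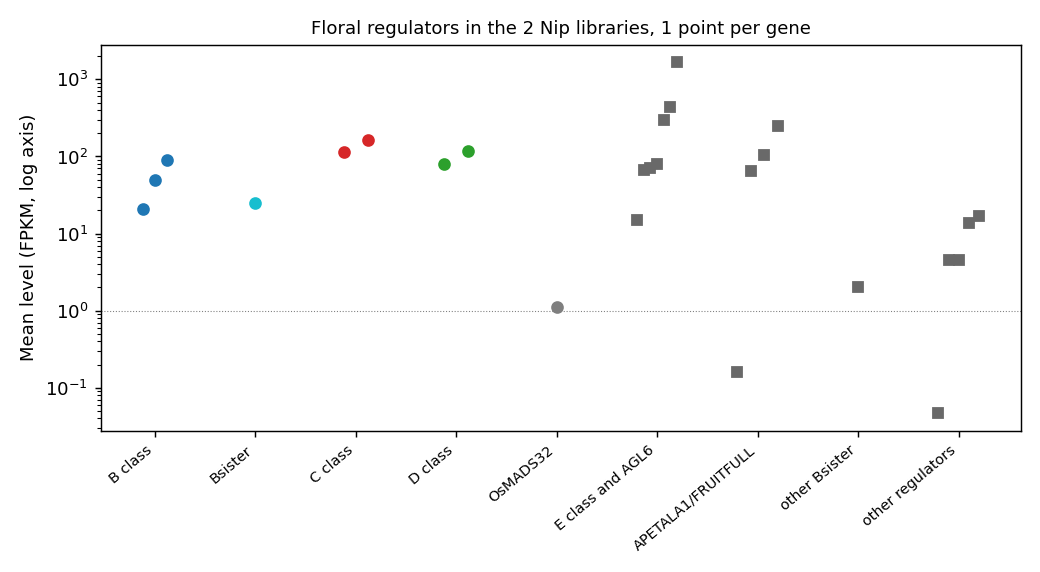
Mean FPKM over both Nip libraries (vertical axis, logarithmic) of the 9 MADS genes (circles, by class) and of other floral regulators (gray squares), with 1 point per gene and a dotted line at 1 FPKM. The E class and AGL6 genes range from 14.8 to 1670 FPKM, and the B, C and D genes other than OsMADS32 from 21.1 to 162.3 FPKM.

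OsRDR2 was at 13.8 and 12.8 FPKM in the control. With no mutant library used, this value checks neither the genotype nor the tissue. To describe the labelled tissue, markers of other cells were read beside the MADS genes. Of 6 tapetum genes, 1 reached 1 FPKM in both libraries, GAMYB at 14.0 ± 1.37 FPKM, and UDT1 was at 0.947 and 1.07 FPKM. Of 5 meiocyte genes, 4 did, with PAIR2 highest at 21.5 ± 0.819 FPKM and OsSPO11-1 at 5.75 ± 0.287 FPKM. Of 4 inflorescence meristem genes, OSH15 was at 37.4 ± 2.96 FPKM and OSH1 at 13.2 ± 0.863 FPKM, and the spikelet and axillary meristem genes FZP and LAX1 were listed at 0. The 3 green tissue genes summed to 502.9 FPKM in replicate 1 and 444.0 FPKM in replicate 2, led by CAB2R at 331.8 ± 35.1 FPKM. All 3 were higher in replicate 1, as were 7 of the 9 MADS genes. Of the other lists, 1 of 6 tapetum, 3 of 5 meiocyte and 1 of 4 inflorescence meristem genes were higher in replicate 1. In the meristem list FZP and LAX1, at 0 in both libraries, could be higher in neither. So were 4 of the 7 E class and AGL6-type genes and 1 of the 5 other regulators higher in replicate 1. Over rows with 1 ID that averaged 1 FPKM or more, the share was 52%. The part of green tissue in the MADS levels was not tested.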

How the data were processed

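Each row of the deposited table pairs 2 libraries and gives the FPKM that the authors estimated for each, per the file headers. Per the submitters' processing notes, TopHat was used; no version stands there. The estimator, build and annotation are not named in the sources used here. The table names 6 libraries. Control names numbered 1 and 2 were taken for Nip replicates 1 and 2, and the other 4 names were not used: 1 is a control name outside the labels used here, and the mutant names outnumber the mutant samples and carry other numbers. The planned limma test between genotypes was therefore not run.

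The rule for the 9 genes is a list of locus IDs and uses no measured value, but the genes and the other lists were chosen with earlier results of these data known. The rule for named genes was all 9, OsRDR2 and, with no test, the 2 most abundant genes of each list. OsMADS34, OsMADS7, OsMADS20, APO2, OsMADS14's place in the order, FZP and LAX1, and all neighbouring rows, were named after their values were seen. The genes most alike in pattern were to be named over at least 4 libraries and are not given. Of 49 listed IDs, all had a row, and 45 matched by symbol a gene of RefSeq's rice gene table (assembly ASM3414082v1) on the same chromosome within 5 Mb. Of the other IDs, that of OsMADS32 is reported by the name its list gives and LOC_Os04g52410 by its ID. No sequence table was at hand, so no sequences are shown.

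Means and SDs were computed with pandas 2.3.3 and numpy 2.4.6, and differences as log2(FPKM + 1). The table gives no counts. The commonest ratio, held by 572 of 4202 rows under 0.5 FPKM in both libraries, puts the depth of replicate 1 at 1.07 times that of replicate 2. The depth itself is unknown, so no counting interval is given, and it was not tested whether sampling noise alone separates the libraries. Rows that name no gene, with 1.27% and 1.29% of the summed FPKM, stayed out of the shares of rows. Tested on simulated data of 57143 rows, the depth estimate recovered a set ratio of 0.93 as 0.93 and the median-ratio scaling a set factor of 1.25 as 1.25. The simulated counts were random draws around the same level in both libraries, with the span of each row as its length. They held no other variation between replicates and no sharing of fragments between rows. Whether the commonest ratio measures depth in the deposited values was therefore not tested.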

Additional observations from a re-analysis of the deposited data

How the results depend on the processing

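The mean levels of the 9 genes and their order were recomputed with median-ratio scaling and from each library alone, 30 values in all. All 30 lay within 1 SD of the mean or, for the order, kept all 9 genes at their place. Neither setting is a strong check: scaling moved no level by more than 0.00354%, and with 2 libraries each lies within 1 SD of their mean by construction. The order is the finding that each library could have changed, and it was the same in both. Whether other rows spread over like levels keep their order as well was not computed. No paired analysis was possible because the Nip libraries alone could be tied to labelled samples. For that reason the test between genotypes and its alternatives (pseudocount, filters, trend, scaling, replicate block and left-out libraries) were not run. Low values limit what can be said of OsMADS32, where the fragments behind 1.15 and 1.06 FPKM are unknown, and the shared row limits what can be said of OsMADS58.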
